A study of Capra hircus with 6 samples.

Results

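The long assembled loci are transcribed regions that the authors assembled from the reads and that carry an MSTRG ID in place of a gene ID. They were taken here as the assembled loci with a length over 3000 bp and a count above 0 in all 6 libraries. This rule found 653 loci among the 4441 assembled loci and the 24950 features of the count table. Of the 726 assembled loci over 3000 bp, 73 lacked a count in at least 1 library and were left out. The length of each locus was worked out from its count, its FPKM (counts scaled to the length of the feature and to the total of the library) and the total count of the library. The members were thus chosen by length and by detection in every library. The detection rule depends in part on the change itself, since 57 of the 73 loci left out were at 0 in CK libraries only and 14 in 5i8d libraries only.

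The comparison was between fibroblasts from the goat ear margin (day 0, named the CK group) and cells after 8 days in the induction medium (5i8d group), with 3 libraries in each group. The fibroblasts came from the ears of young Guanzhong dairy goats. The cells labelled as induced mammary epithelial cells were grown from them in a medium that the labels call BFRTV and the paper calls 5i, with Forskolin, TTNPB, VPA, Repsox and Tranylcypromine, and at day 8 they were described as cells with primary colonies on Matrigel-coated plates. Both groups share the fibroblast origin, and a control culture without the compounds at day 8 was not analysed here, so the compounds and the days in culture cannot be told apart. The paper calls its replicates in each group biological. The sources used here do not say whether the libraries of a group came from separate animals or cultures. A p-value therefore measures only how these libraries spread. The IDs carry no gene names, and the labelled cell types could not be checked against marker genes. In such bulk samples, fewer cells of a type and less RNA per cell cannot be told apart.

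Long noncoding RNAs are transcripts that are longer than the small RNAs and have no protein product. Many are transcribed between or inside other genes, they are often particular to a cell type, and they can act on chromatin, on transcription or on other RNAs. Removal of rRNA from total RNA, as used for these libraries, also leaves unprocessed and non-polyadenylated RNA, so that an assembled locus can be a finished noncoding RNA, an extension of a neighbouring gene or unspliced RNA, and the files do not mark which. No coordinates are given with the loci, and no sequence can therefore be shown.

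The 653 long loci ran from 3002 bp to 108423 bp, with a median of 5469 bp and a middle of the distribution from 3986 bp to 8781 bp. Of them, 375 (57.4%) were longer than 5000 bp, 136 (20.8%) longer than 10000 bp and 15 longer than 30000 bp. Together they covered 5237 kb. The members nearest to the limit were MSTRG.127689, of 3002 bp, and MSTRG.131239, of 3005 bp. MSTRG.127689 had 123, 160 and 440 counts in CK1, CK2 and CK3 and 234, 146 and 350 in 5i8d1, 5i8d2 and 5i8d3. MSTRG.131239 had 142, 173 and 175 counts in the CK libraries and 62, 113 and 121 in the 5i8d libraries. Its log2 fold change was -1.07 (adjusted p = 0.10, and 0.018 with the replicate number as a block). That block follows a pairing drawn from these same data. The detected assembled loci just under the limit had 2987 bp and 2985 bp. The locus of 2987 bp had 32, 53 and 64 counts in the CK libraries and 18, 8 and 14 in the 5i8d libraries, and the locus of 2985 bp had 36, 40 and 61 and then 61, 41 and 211. At the other limit, detection, 14 members had a count of 1 in at least 1 library, 58 had fewer than 10 counts in at least 1 library and 595 had 10 or more in all 6. The median of the mean counts was 208, and 71 members had a mean of 1000 counts or more.

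The total counts were between 28162284 and 37544673 per library. Across the features, CK3 and 5i8d3 stood apart from the other libraries of their groups, and they were not among the 4 libraries that the paper lists. The group comparisons of shares, levels and calls were therefore also made for CK1, CK2, 5i8d1 and 5i8d2. Among the long loci, 35 differed by 4-fold or more between CK1 and CK3 and 30 between CK2 and CK3, against 7 between CK1 and CK2. These are 5.36%, 4.59% and 1.07% of the members, against 10.7%, 10.1% and 0.584% of all features tested that had a count in all 6 libraries. In the 5i8d group the numbers were 18 between 5i8d1 and 5i8d2, 46 between 5i8d1 and 5i8d3 and 25 between 5i8d2 and 5i8d3. The background shares for these pairs were 2.59%, 9.25% and 6.58%. Over the long loci the median absolute log2 difference was 0.64, 0.58 and 0.52 for the same pairs in this order. By that measure 5i8d3 was not set apart among the long loci. Between a CK and a 5i8d library, 158 to 259 of the long loci (24.2% to 39.7%) differed by 4-fold or more, against 15.6% to 26.3% of the background and, between CK3 and 5i8d3, 33.1% of the long loci against 19.6%. The rank correlation across the loci was 0.37 to 0.47, whereas it was 0.86 to 0.98 within a group. The loci share library depth in these correlations and are not independent replicates.

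A few loci held most of the counts. The long loci together took 3.45%, 3.54% and 7.81% of all counts in CK1, CK2 and CK3, and 4.14%, 2.31% and 3.94% in 5i8d1, 5i8d2 and 5i8d3. The mean was 4.93% ± 2.49 for CK and 3.46% ± 1.00 for 5i8d (SD, n = 3 each). The groups overlapped, and the difference of -1.47 percentage points was within the spread between libraries (two-sided exact permutation test, p = 0.60, where 3 against 3 cannot go below 0.10). In CK1, CK2, 5i8d1 and 5i8d2 alone the difference was -0.27 percentage points (exact permutation test, p = 1.00). MSTRG.218431 alone made up 55.7%, 55.6% and 70.5% of the counts of the long loci in CK1, CK2 and CK3 and 55.0%, 51.5% and 62.3% in 5i8d1, 5i8d2 and 5i8d3. The same 3 loci, MSTRG.218431, MSTRG.218425 and MSTRG.145074, had the highest counts in every library, in this order. The 10 most abundant long loci of each library held 73.2% to 87.7% of the counts of the class, with a mean of 81.8% ± 5.1 for CK and 77.4% ± 4.0 for 5i8d (SD, n = 3 each; two-sided exact permutation test, p = 0.40). Without the 3 top loci, the rest of the class took 1.02%, 1.06% and 1.39% of the counts in CK1, CK2 and CK3 and 1.32%, 0.88% and 1.12% in 5i8d1, 5i8d2 and 5i8d3. With these 3 set aside, the group means were 1.16% ± 0.20 and 1.11% ± 0.22 (SD, n = 3 each; two-sided exact permutation test, p = 0.80).

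**Figure D1:**
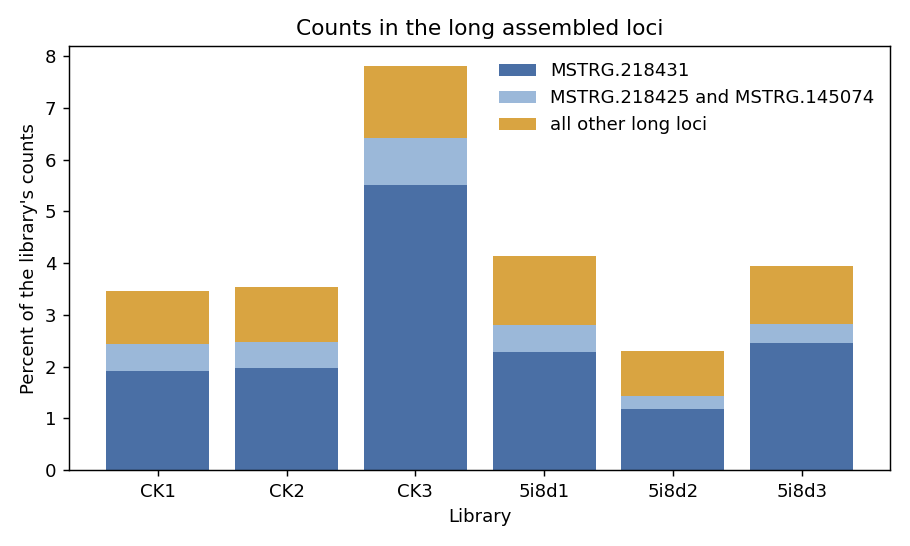
Percent of each library's counts (y axis) in the long assembled loci, split into MSTRG.218431, the next 2 loci by mean count and all others, for the 3 CK and the 3 5i8d libraries (x axis). CK3 stands highest with 7.81%, and the part outside the top 3 loci lies between 0.88% and 1.39% in all 6 libraries.

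Per kilobase, most long loci were present at a low level. The median FPKM over the 653 loci was 0.886, 0.912 and 1.17 in CK1, CK2 and CK3 and 1.20, 0.744 and 0.867 in 5i8d1, 5i8d2 and 5i8d3. At or above an FPKM of 1 were 299, 302 and 363 loci in the CK libraries and 380, 248 and 288 in the 5i8d libraries, and at or above 10 were 14 to 21 loci per library. On the scale of log10(FPKM + 1) the median was 0.298 ± 0.034 for CK and 0.285 ± 0.052 for 5i8d (SD, n = 3 each), and the groups overlapped (two-sided exact permutation test, p = 0.70). Over the paper's 4 libraries the difference had the opposite sign, 0.0136 against -0.0128, and in both cases it was smaller than the SD of the 5i8d group. The longest loci tended to have somewhat higher FPKM, with a rank correlation of 0.25 between length and mean FPKM across the 653 loci, which share the libraries and the length in the divisor.

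Beside the long loci, the 7079 annotated genes over 3000 bp that also had a count in all 6 libraries had a median FPKM of 5.51 to 7.86 per library. Their median of log10(FPKM + 1) exceeded that of the long loci by 0.588 ± 0.059 (SD, n = 6 libraries), with the same sign in all 6 (two-sided exact permutation test by sign flips, p = 0.031, which 6 libraries cannot go below). Over the paper's 4 libraries it was 0.620 ± 0.018 (SD, n = 4, p = 0.13 by the exact sign-flip test, again the smallest for that number). The gap was 0.569 ± 0.080 for CK and 0.608 ± 0.036 for 5i8d, a difference within the spread between libraries (SD, n = 3 each; two-sided exact permutation test, p = 0.70). The 1226 assembled loci of 3000 bp or shorter with a count in all 6 libraries had a median FPKM of 0.654 to 0.957. The long loci lay 0.0404 ± 0.0299 above them on the log10 scale (SD, n = 6), in 5 of 6 libraries and not in 5i8d3 (exact permutation test by sign flips, two-sided, p = 0.0625). A count above 0 needs a higher FPKM in a shorter locus, and with at least 10 counts in all 6 libraries for both classes the long loci lay below the short ones (-0.0319, exact sign-flip permutation test, p = 0.0625).

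Expression of the long loci changed in both directions between the fibroblasts and the induced cells. All 653 passed the filter on low counts. By the quasi-likelihood test of edgeR on the 6 libraries (adjusted p under 0.05), 118 long loci (18.1%) rose in the 5i8d group and 130 (19.9%) fell, and 405 did not pass the test. Of all 17757 features tested, 30.1% passed, 18.9% higher and 11.2% lower, and of the 15926 with a count in all 6 libraries, 15.0% rose and 11.3% fell. The share of long loci that rose thus lay between the 2 background values, and the share that fell lay above both. Of the 7012 long annotated genes tested, 17.1% rose and 15.0% fell. None of these differences was tested. The median log2 fold change was -0.29 over the long loci and -0.02 over the features with a count in all 6 libraries, and over the paper's 4 libraries it was -0.11 for the long loci. Scaling by library totals in place of TMM moves the median of all features by 0.17 on the log2 scale. With it, 129 long loci (19.8%) rose and 116 (17.8%) fell, against 21.0% and 8.90% of all features (29.9% in either direction). The larger of the 2 numbers thus depended on the scaling. Over the paper's 4 libraries 145 rose and 147 fell, against 24.5% and 17.1% of all features. Of the 248 calls from 6 libraries, 239 were among them, 0 of them reversed. The 145 and 147 were 22.2% and 22.5% of the long loci, close to the 21.1% and 21.9% of the long annotated genes. A fit that took the replicate number as a block gave 149 that rose and 206 that fell, and these included all 248 calls. Of all features, 26.7% rose and 21.0% fell in that fit (47.7% in either direction). The pairing behind the block was drawn from the same values, so this fit is not independent support for the calls. With the block, 22.8% of the long loci rose and 31.5% fell, against 24.1% and 29.1% of the long annotated genes. Most of the distance to all features in the share that fell was thus also seen in the long annotated genes in these 2 fits. Leaving out CK2 brought the number that rose to 77 (11.8%, against 12.3% of all features in that fit), and leaving out 5i8d2 brought the number that fell to 76 (11.6%, against 6.26% of all features). Of the long annotated genes, 11.2% rose without CK2 and 8.49% fell without 5i8d2.

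The overall balance of the class differed between the libraries. From CK1 to 5i8d1, 375 long loci were higher and 278 lower, with a median log2 difference of 0.20. From CK2 to 5i8d2, 245 were higher and 408 lower (median -0.46), and from CK3 to 5i8d3, 230 were higher and 423 lower (median -0.68). Over the features with a count in all 6 libraries each of the 3 medians was within 0.02 of 0. TMM scaling, used here, sets the bulk of the features near 0, so these medians follow from the scaling. In CK3, 489 of the long loci (74.9%) had a higher normalised count than in both CK1 and CK2, against 45.7% of the features with a count in all 6 libraries, and 119 had a lower one than in both. Without CK3, 125 long loci (19.1%) rose and 116 (17.8%) fell, and the median log2 fold change of the long loci was -0.10. In that fit 18.7% and 11.4% of all features rose and fell, and 16.5% and 15.4% of the long annotated genes. The direction of the class as a whole thus depended on which libraries were compared. The labels do not pair the libraries, and the match by number was drawn from the data. Over the long loci, the median absolute log2 difference was 0.20 for CK1 against CK2. For 5i8d1 against 5i8d2 it was 0.64. The change of sign from number 1 to number 2 therefore cannot be read as a response particular to a pair.

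The median log2 fold change was 3.13 among the 118 that rose and -2.34 among the 130 that fell. Of the 653 long loci, 40 passed the test with a rise of 16-fold or more and 14 with such a fall. For 64-fold or more the numbers were 11 and 2. Of all features tested, 7.51% passed with a rise and 1.46% with a fall of 16-fold or more. For 64-fold or more these shares were 3.92% and 0.507%. A change under 4-fold was found for 31 loci that rose and 52 that fell. In the loci that rose, the median of the mean FPKM was 0.174 for CK and 1.57 for 5i8d, and in those that fell it was 1.83 and 0.383. Of the loci that rose, 42 had a mean FPKM under 0.1 in the CK group, and 10 of those that fell had less than 0.1 in the 5i8d group. The study's own thresholds were an unadjusted p under 0.05 and a change of at least 4-fold. With them 89 long loci were higher and 81 lower over the 6 libraries, while 14.1% and 6.18% of all features were. On the TMM scale, 153 long loci were higher in every 5i8d library than in every CK library, and 205 were lower. Together these were 54.8% of the long loci. Of all features tested, 26.4% were higher and 19.7% lower in this way, 46.1% in either direction. The groups did not overlap for any of the 248 loci that passed the test. Another 110 did not overlap and did not pass.

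**Figure D2:**
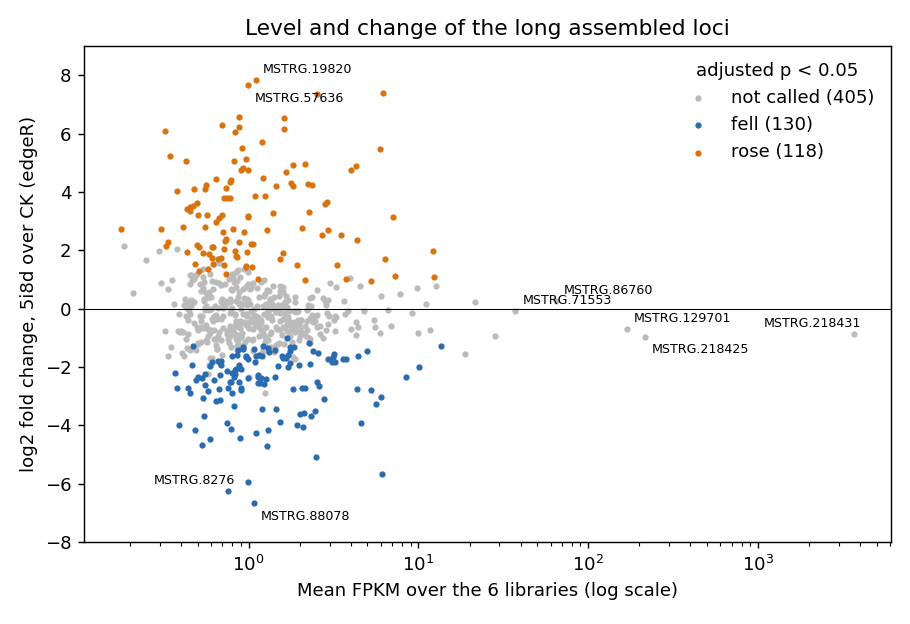
Log2 fold change of each of the 653 long assembled loci, 5i8d over CK (y axis), against its mean FPKM over the 6 libraries (x axis, log scale), with the 118 that rose in orange, the 130 that fell in blue and the others in grey. The changed loci have mean FPKM of 0.177 to 13.5, and the 5 loci with the highest level, in grey, lie between -0.97 and 0.25.

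The calls from CK1, CK2, 5i8d1 and 5i8d2 were then compared with CK3 and 5i8d3. These 2 libraries had no part in the calls, but the detection rule for the loci and for the background used them. Of all 653 long loci, called or not, 423 were lower in 5i8d3 than in CK3, so the shares below are a description. Of the 145 long loci that rose in the 4 libraries, 141 (97.2%) were higher in 5i8d3 than in CK3, and of the 147 that fell, 146 (99.3%) were lower. Over all features with a count in all 6 libraries the shares were 98.1% and 96.2%. The median log2 difference between 5i8d3 and CK3 was 2.37 for the long loci that rose, against 2.71 in the 4 libraries, and -2.57 for those that fell, against -1.92. Among the loci that did not pass the test in the 4 libraries the directions were uneven. Of 156 that leaned up, 72 (46.2%) were higher in 5i8d3 than in CK3, and of 205 that leaned down, 189 (92.2%) were lower, whereas over the features with a count in all 6 libraries these shares were 69.3% and 73.3%.

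The largest rises were in very long loci that were almost absent from the fibroblasts. MSTRG.19820, of 27399 bp, had 16, 7 and 1 counts in CK1, CK2 and CK3 and 2287, 2294 and 1975 in 5i8d1, 5i8d2 and 5i8d3. Its FPKM was 0.00843 ± 0.00780 for CK and 2.20 ± 0.15 for 5i8d (SD, n = 3 each). The summed counts were 221 times higher in the 5i8d group on the TMM scale (95% counting interval 148 to 345). Such an interval covers counting error only and not the spread between libraries. The log2 fold change was 7.82 (SE, the standard error, 0.69, adjusted p = 0.00036 over the 6 libraries). The 5i8d libraries were close together, and the spread lay in the few counts of the CK group. MSTRG.57636, of 38501 bp, had 10, 15 and 8 counts in the CK libraries and 3202, 2707 and 2328 in the 5i8d libraries. Its FPKM was 0.00862 ± 0.00209 and 1.97 ± 0.32 in the 2 groups (SD, n = 3 each), and the log2 fold change was 7.65 (SE 0.33, adjusted p = 0.0001). In each 5i8d library both loci lay above every CK library, which the rule for naming them required.

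The largest falls were in loci that were almost absent from the induced cells. MSTRG.88078, of 11000 bp, had 806, 706 and 756 counts in CK1, CK2 and CK3 and 3, 4 and 20 in 5i8d1, 5i8d2 and 5i8d3. In sum, the CK libraries held 104 times the counts of the 5i8d libraries on the TMM scale (95% counting interval 71.3 to 158). The interval leaves out the spread between libraries. The log2 fold change was -6.67 (SE 0.82, adjusted p = 0.0013). Of the 27 counts in the 5i8d group, 20 were in 5i8d3, and over the paper's 4 libraries the log2 fold change was -7.92. MSTRG.8276, of 5199 bp, had 188, 303 and 260 counts in the CK libraries and 2, 4 and 6 in the 5i8d libraries, and its counts in the CK group exceeded those of the 5i8d group 77.5 times (95% counting interval 44.1 to 151, log2 fold change -6.25, SE 0.58, adjusted p = 0.00042). The FPKM of MSTRG.8276 was 1.49 ± 0.40 for CK and 0.0213 ± 0.0109 for 5i8d (SD, n = 3 each). For both loci the 3 induced libraries lay below every fibroblast library, which the rule for naming them required.

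**Figure D3:**
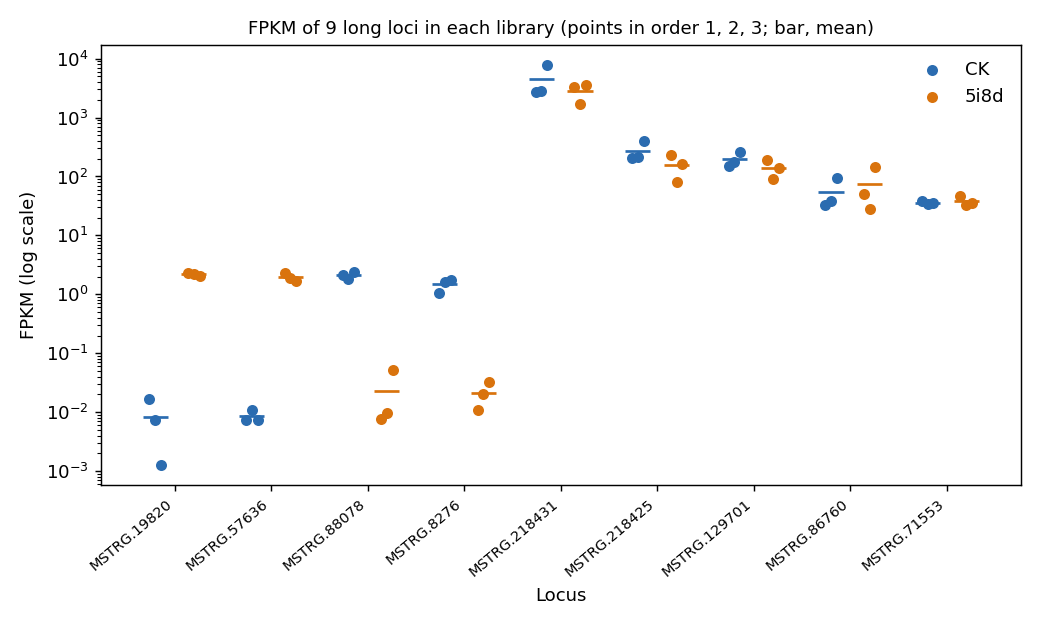
FPKM in each library (y axis, log scale) of the 2 long loci with the largest rise, the 2 with the largest fall and the 5 with the highest mean FPKM (x axis), with CK libraries in blue, 5i8d libraries in orange and a bar at each group mean of 3 libraries. The first 4 loci are apart by a factor of 77.5 or more in summed counts, and the 5 most abundant do not pass the test.

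The most abundant long loci did not pass the test. MSTRG.218431, of 6958 bp, had an FPKM of 2764, 2830 and 7908 in CK1, CK2 and CK3 and of 3269, 1709 and 3531 in 5i8d1, 5i8d2 and 5i8d3. Its values overlapped between the groups, and CK3 was 3.21 times the lowest CK library on the TMM scale (log2 fold change -0.87, SE 0.57, adjusted p = 0.31, and -0.33 with 0.51 over the paper's 4 libraries). MSTRG.218425, of 15472 bp, had an FPKM of 208, 211 and 396 in the CK libraries and 228, 82.0 and 166 in the 5i8d libraries, with a log2 fold change of -0.97 (SE 0.49, adjusted p = 0.19, and 0.033 with the replicate number as a block). MSTRG.129701, of 5846 bp, had 151, 179 and 261 against 188, 91.6 and 140 (log2 fold change -0.69, adjusted p = 0.23). In these 3 loci CK3 was the highest CK library and 5i8d2 the lowest of all 6. MSTRG.86760, of 3194 bp, had an FPKM of 32.7, 37.9 and 94.8 in the CK libraries and 50.7, 27.7 and 145 in the 5i8d libraries, and CK3 and 5i8d3 were the highest libraries of their groups and of all 6 (log2 fold change 0.25, SE 0.72, adjusted p = 0.83). MSTRG.71553, of 14186 bp, had 38.3, 34.3 and 35.3 in the CK libraries and 45.8, 32.9 and 36.0 in the 5i8d libraries. It was among the steadiest members with many counts, with a log2 fold change of -0.09 (SE 0.23, adjusted p = 0.82).

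Below these loci the order of abundance changed. Ranked by mean FPKM, 11 of the 20 highest long loci of the CK group were also among the 20 highest of the 5i8d group. The 20 highest in the CK group held 7 loci that fell and 0 that rose, and the 20 highest in the 5i8d group held 7 that rose and 0 that fell. The loci that were among the 20 highest at day 8 only had ranks between 24 and 626 at day 0, and those among the 20 highest at day 0 only had ranks between 21 and 600 at day 8. Such ranks use the same values as the test and are given as a description.

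Of the 3 longest loci, 2 rose and 1 did not pass the test. The longest, of 108423 bp, had 360, 430 and 709 counts in the CK libraries and 17854, 10248 and 11646 in the 5i8d libraries, and it rose with a log2 fold change of 4.32 (SE 0.51, adjusted p = 0.001). The next, of 66009 bp, had 494, 462 and 537 counts against 34132, 23124 and 26392, an FPKM of 0.234 ± 0.048 for CK and 11.7 ± 2.6 for 5i8d (SD, n = 3 each). Its log2 fold change was 5.46 (SE 0.36, adjusted p = 0.00015). At both loci each induced library was far above every fibroblast library. MSTRG.145074, of 63975 bp, had an FPKM of 29.0, 28.9 and 47.5 in the CK libraries and 28.7, 17.3 and 17.6 in the 5i8d libraries. The FPKM of 5i8d1 was near those of CK1 and CK2, and its log2 fold change of -0.93 had an adjusted p of 0.099 (0.033 with the replicate number as a block).

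The share of loci that passed the test was larger among the longer loci. Of the 278 long loci of up to 5000 bp, 46 (16.5%) rose and 37 (13.3%) fell. Of the 239 between 5000 and 10000 bp, 39 (16.3%) rose and 54 (22.6%) fell, and of the 136 over 10000 bp, 33 (24.3%) rose and 39 (28.7%) fell. The median of the mean counts was 112.5, 229.5 and 766 in these classes, so that depth moved with length, and its part in these shares was not tested. The long annotated genes of the same length classes had 15.8%, 18.6% and 19.1% that rose and 12.7%, 17.0% and 25.3% that fell, out of 4015, 2641 and 356 genes. The shares of the loci and of the genes were not tested against each other. The loci were also split into a lowest, a middle and a highest part by mean FPKM, divided at 0.779 and 1.43. In these parts 38.1%, 36.4% and 39.4% of the loci were called. Of the 71 loci with a mean count of at least 1000, 17 (23.9%) rose and 21 (29.6%) fell. No other class by count was formed, so no trend by count is shown. In the lowest part by mean FPKM 50 loci rose and 33 fell, and in the highest 35 rose and 51 fell.

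**Figure D4:**
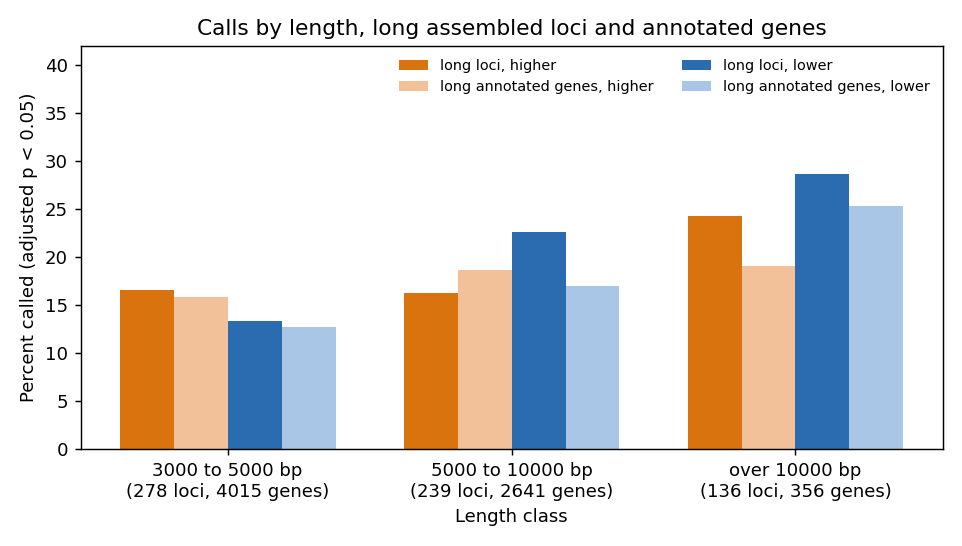
Percent of the long assembled loci (dark bars) and of the long annotated genes (light bars) that were higher (orange) or lower (blue) in the 5i8d group at an adjusted p under 0.05 (y axis), by length (x axis). Among the loci the share that fell runs from 13.3% up to 5000 bp to 28.7% over 10000 bp.

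Other long loci with many counts showed small differences between the groups. MSTRG.22037, of 15915 bp, had 933, 1164 and 1122 counts in CK1, CK2 and CK3 and 2148, 925 and 907 in 5i8d1, 5i8d2 and 5i8d3, with a log2 fold change of -0.05 (SE 0.41, adjusted p = 0.95). MSTRG.234279, of 32029 bp, had 1540, 1453 and 1438 counts against 2625, 1825 and 1498, with a log2 fold change of 0.08 (SE 0.28, adjusted p = 0.87). In both, 5i8d1 was the highest library. A p over the threshold does not show that the levels are equal, and the SE values give the room that is left.

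The spread within a group was large at some loci. The ratio of the highest to the lowest library had a median of 1.85 for CK and 1.96 for 5i8d, and it was 4 or more for 46 and 65 of the 653 loci. MSTRG.129834, of 5683 bp, had 403, 6 and 24 counts in 5i8d1, 5i8d2 and 5i8d3, a ratio of 70.4 on the TMM scale, and 69, 23 and 101 in the CK libraries. MSTRG.58218, of 4264 bp, had 187, 28 and 7 counts in the 5i8d libraries and 117, 89 and 38 in the CK libraries. In both loci 5i8d1 was by far the highest induced library, and neither passed the test (adjusted p = 0.75 and 0.81). Without 5i8d1 the log2 fold change of MSTRG.129834 turned from 0.72 to -2.47. The largest ratio in the CK group was 30.5, at a locus of 6738 bp with 1, 7 and 22 counts in CK1, CK2 and CK3 and 268, 174 and 336 in the 5i8d libraries, which rose with a log2 fold change of 4.23 (SE 1.00, adjusted p = 0.017, and 0.070 without CK2).

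Long loci with neighbouring ID numbers often had similar changes. The IDs of the members run from 128 to 234279, and assemblers that give MSTRG names usually number loci along the genome, but neither the assembler nor the positions are stated in the labels or the paper, and whether close numbers are close in the genome was not tested. In 22 runs, 46 members had an ID number 1 or 2 away from that of another member, which made 24 pairs. In 19 of the 24 pairs (79.2%) both loci had a log2 fold change of the same sign. Both rose in 7 pairs, both fell in 3, and in 1 pair they were called in opposite directions. The median absolute difference between the 2 log2 fold changes of a pair was 0.52. For the 518 pairs of consecutive members that were more than 50 numbers apart it was 1.68, and 49.6% had the same sign. Runs share loci between pairs, and these counts are a description.

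The largest runs held 3 loci each. In one, the locus of 3306 bp had 1, 5 and 11 counts in CK1, CK2 and CK3, the locus of 4454 bp had 1, 1 and 6, and the locus of 15318 bp had 22, 28 and 32. Per kilobase the 3 loci were level with each other in each induced library, with an FPKM of 2.16, 2.22 and 2.29 in 5i8d1, of 1.51, 1.52 and 1.59 in 5i8d2 and of 1.56, 1.43 and 1.49 in 5i8d3. They rose with log2 fold changes of 4.75, 6.24 and 4.81 (standard errors 0.81, 0.81 and 0.41, adjusted p = 0.0048, 0.0016 and 0.00031). In the other, loci of 21647, 9825 and 5210 bp rose with log2 fold changes of 3.12, 2.81 and 3.34 (adjusted p = 0.00072, 0.016 and 0.0026). For the locus of 9825 bp the adjusted p was 0.051 without CK1 and 0.067 without CK2. The FPKM of these 3 was 1.41, 1.60 and 1.20 in 5i8d1 and 1.16, 0.615 and 0.488 in 5i8d3. Among the pairs, loci of 60078 and 9826 bp fell together, with log2 fold changes of -1.44 and -1.64 (adjusted p = 0.020 and 0.026). The adjusted p of the longer one was 0.051 over the paper's 4 libraries, and those of the pair were 0.074 and 0.094 without 5i8d2 and 0.057 and 0.062 without 5i8d3. The pair called in opposite directions was a locus of 11071 bp that fell (log2 fold change -2.70, adjusted p = 0.0023) and one of 4709 bp that rose (1.89, adjusted p = 0.022).

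**Figure D5:**
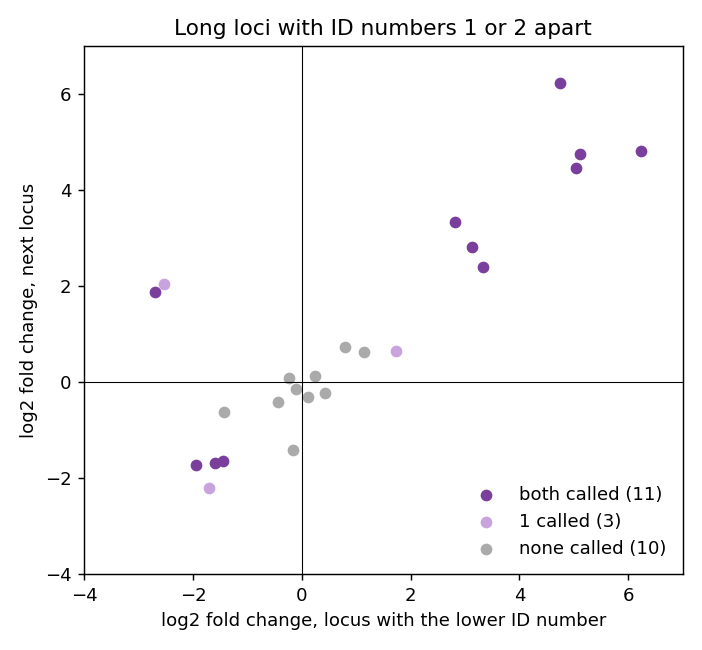
Log2 fold change, 5i8d over CK, of the long locus with the lower ID number (x axis) and of the next one (y axis) for the 24 pairs 1 or 2 numbers apart, coloured by how many of the pair passed the test. In 19 pairs both values have the same sign, and 2 points lie far in the upper left, where the first locus is lower and the next one higher.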

How the data were processed

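Directional libraries were made from total RNA depleted of rRNA. FastQC 0.10.1, DESeq2 1.16.1 and HTSeq are listed in the processing notes of the submitters. No aligner, assembler, strand setting or genome build is named (not given in the sources used here), so overlapping features may share reads. The authors deposited whole-number counts per feature. A second deposited table gives FPKM, which the authors computed from these counts. The count, the FPKM and the library total gave 1 length per feature, with a spread over libraries of at most 8.69e-10 bp. FPKM was given for 24949 of the 24950 features. None of the IDs (0) matched the reference gene table.

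Counts were fitted over the whole table with R 4.3.3 and edgeR 4.0.16 (filterByExpr, TMM, quasi-likelihood test, adjusted p under 0.05 by Benjamini-Hochberg). For a standard error, the size of the log2 fold change was divided by the root of F. Alternatives used DESeq2 1.42.0, the paper's 4 libraries, a replicate block, library totals, no filter, other count limits and pseudocounts, and each library left out in turn. Library values were compared by exact permutation with scipy 1.17.1, and figures drawn with matplotlib 3.10.9. Counting intervals cover counting error only. The members and the lists were chosen with earlier results of these data known.

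Same-numbered libraries deviated together from their group means (correlation 0.42, 0.55 and 0.67 for numbers 1, 2 and 3 over the features tested), and by this the numbers were taken as pairs. This pairing comes from the data and not from the labels, so fits with the replicate block use a pairing drawn from the values that they test. CK1 correlated more with 5i8d2 (0.47) than with 5i8d1 (0.42), so number 1 is not set apart as a pair. Over the long loci the same-numbered values were 0.21, 0.33 and 0.43, and CK1 with 5i8d2 gave 0.24. Deviations within a group sum to 0, so a shift shared by CK3 and 5i8d3 also appears in the other numbers.

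Loci were named by rule: the 2 largest changes in either direction among loci that passed the test, averaged 50 counts or more and did not overlap between groups, the 5 highest mean FPKM, the 3 longest, those at the length limit, the 3 with the largest ratio within a group, the 3 smallest changes with a mean of at least 1000 counts and the largest runs of ID numbers. The pair with opposite calls was chosen after its values were seen. As IDs have no gene names, only 2 IDs in each direction were printed, and other changed loci are given by length. The cell type markers could not be used.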

Additional observations from a re-analysis of the deposited data

How the results depend on the processing

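The number of long loci that rose (118) was within 1.5 times under the paper's 4 libraries, the replicate block, DESeq2 and library totals. The same held for no filter, the paper's thresholds and the limit of 10 counts. With 1 library left out the number ran from 77 to 125. These were 11.8% and 19.1% of the long loci, against 12.3% and 18.7% of all features in those fits. The number that fell (130) was 206 with the replicate block and 81 at the paper's thresholds, where 21.0% and 6.18% of all features fell. With 1 library left out it ran from 76 to 132. These were 11.6% and 20.2% of the long loci, against 6.26% and 10.8% of all features in those fits. With DESeq2, 132 (20.2%) rose and 176 (27.0%) fell, against 22.1% and 15.4% of all features. The difference in the share of counts kept its sign under each alternative, and with the replicate block it was -1.47 percentage points (exact sign-flip permutation test over 3 pairs, p = 0.50, where 0.25 is the smallest possible). The difference of the median level reversed to 0.0136 over the paper's 4 libraries and ran from -0.0416 to 0.00909 with 1 library left out. The gap to the long annotated genes was 0.620 over the 4 libraries and 0.577 to 0.611 with 1 library left out, where fewer libraries cannot reach a p of 0.05. The gap to the short loci reversed to -0.0319 with at least 10 counts in all 6 libraries, a limit that removes low loci of both classes. For the named loci, 268 of the alternative fits kept direction and call, 8 lost the call, 3 gained it under the replicate block and 18 changed sign, all at 7 loci that passed the test in none of these fits. Over the paper's 4 libraries the log2 fold change became -0.0063 for MSTRG.86760, 0.21 for MSTRG.127689 and 0.35 for MSTRG.22037, with library totals 0.088 for MSTRG.71553 and 0.15 for MSTRG.22037, and with the replicate block -0.71 for MSTRG.129834. With 1 library left out the values ran from -0.75 to 0.99 for MSTRG.86760, -0.24 to 0.0061 for MSTRG.71553, -0.87 to 0.64 for MSTRG.127689, -2.47 to 1.45 for MSTRG.129834, -2.53 to 0.11 for MSTRG.58218, -0.58 to 0.17 for MSTRG.22037 and -0.19 to 0.22 for MSTRG.234279. Where no cause is given, the cause was not tested.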

Other observations

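The 73 assembled loci over 3000 bp that lacked a count in at least 1 library had a median length of 4106 bp and reached 16463 bp. Of these, 57 were at 0 in CK libraries only, 14 in 5i8d libraries only and 2 in both groups. In 21 loci all 3 CK libraries were at 0 and in 1 locus all 3 5i8d libraries were, and the highest count of the 73 in any library was 1582. With them, 722 of the 726 assembled loci over 3000 bp were tested over the 6 libraries, of which 173 (24.0%) were higher and 139 (19.3%) lower in the 5i8d group by the same edgeR test, against 18.9% and 11.2% of all features, where the detected loci alone gave 118 and 130. The added loci differ from the others by the very rule that left them out, so these shares are a description. With the replicate number as a block, 204 of the 722 (28.3%) were higher and 215 (29.8%) lower, against 26.7% and 21.0% of all features. Annotated genes over 3000 bp, also taken without the detection rule, gave 19.7% and 14.7% without the block and 26.5% and 28.2% with it. Counts above 0 were found for 694, 690 and 677 of the 726 loci in CK1, CK2 and CK3 and for 723, 724 and 711 in 5i8d1, 5i8d2 and 5i8d3.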
